A study of Mus musculus with 6 samples.

Results

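The sarcomere is the contractile unit of striated muscle, and the genes described here encode its thick filaments with the M-band that joins them, its thin filaments, its Z-discs, and titin with its binding partners. The members were a fixed list of 49 symbols, of which 48 had a row among the 22032 genes of the count table; the symbol Capz matched no row, and the subunit genes of the capping protein it stands for, Capza1, Capza2 and Capzb, are given among the further sarcomere genes. Of the 48 members, 16 belong to the thick filament and M-band, 15 to the thin filament, 13 to the Z-disc and 4 to titin and its partners. By fibre type, 13 were grouped as fast, 12 as slow, 3 as developmental and 20 as shared between fibre types.

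RNA was sequenced from temporomandibular joint tissue, the joint between the jaw and the skull, of Igf2bp2 knockout (KO, Igf2bp2-/-) and wild-type (WT) mice, littermates at 10 weeks of age. Each genotype had 3 libraries. IGF2BP2 is a protein that binds mRNA and recognises m6A marks, and neither the deleted part of the gene nor any pooling of animals is described in the sources used. Chewing muscles attach next to this joint, and the samples held much muscle RNA in both genotypes.

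Sarcomeres shorten when myosin heads on the thick filament pull on actin of the thin filament, and troponin and tropomyosin on the thin filament release this movement when calcium rises. Most of these proteins exist as isoforms from separate genes. Fast fibres use the heavy chains of Myh4 (type IIB), Myh1 (type IIX) and Myh2 (type IIA) with fast light chains and fast troponins, and slow fibres use Myh7 with slow light chains and slow troponins. Mouse jaw-closing muscles are built mostly of type IIB and IIX fibres.

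Total counts ran from 31813171 to 35094127 in KO libraries and from 28551236 to 33935022 in WT libraries. Mitochondrially encoded genes took 85.3% to 86.0% of them in KO and 90.6% to 90.8% in WT, which left 4604575 to 4899680 counts on nuclear genes in KO and 2625472 to 3205190 in WT. The counts of KO 1 and KO 3 varied no more than sampling of read pairs alone gives, with a median variance ratio of 0.94, and so did those of WT 2 and WT 3, with 0.96. These libraries differed by less than the sampling noise and were therefore summed into 1 sample each, which leaves n at 2 samples per genotype. Igf2bp2 itself was lower in KO, with 13, 14 and 10 counts in the KO libraries, against 38, 20 and 24 in the WT libraries (log2 fold change -1.80, SE 0.394, edgeR false discovery rate, FDR, 0.00588). Levels are given as CPM, a gene's counts relative to all counts of its library, mitochondrial ones included, after TMM scaling of the libraries. Changes are on the log2 scale, KO minus WT. Of the cartilage genes, Col2a1 was low, at 1.25 CPM in KO and 1.46 in WT, as was Acan, at 0.692 and 0.930 CPM. Other genes of the joint had higher levels, such as Prg4 at 45.8 CPM in KO and 11.3 CPM in WT. The sarcomere genes together summed to 9009 to 10150 CPM in KO and 5810 to 7717 CPM in WT.

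Sarcomere genes were more often higher than lower in KO. Over all 14632 tested genes edgeR's quasi-likelihood test was used, and 24 of the 47 members tested were higher in KO and none was lower (FDR under 0.05), where 9.15% of all tested genes were called higher and 8.48% lower. At an unadjusted p under 0.05 there were 28 members higher and 3 lower, Myh7, Actc1 and Lmod3. The share of all genes at this unadjusted threshold was not counted. The DESeq2 Wald test and limma-voom also called none lower and 25 higher, with 1634 and 2646 of the 14632 genes called in all. The fit with 6 separate libraries called 26 higher and 2 lower, Actc1 and Lmod3. In that fit 12.6% of all tested genes were called higher and 12.4% lower. The median change of the members was 0.54, beside -0.01 over all tested genes, and it ranged from -0.81 for Myl2 to 1.55 for Myh2. In 29 members all 3 KO libraries lay above all 3 WT libraries, which held for 19.2% of tested genes, and in 4 all lay below, which held for 19.1%. Ankrd1 was the only member too low to test, with 3, 0 and 9 counts in the KO libraries, against 9, 3 and 6 in the WT libraries. Without KO 2, which leaves the KO group with 1 sample assumed to vary like WT, 13 members were called higher and the calls of Myl1, Acta1, Tnnt3, Tpm1, Tpm2, Tmod4, Actn2, Ldb3, Des, Xirp1 and Xirp2 were lost. In bulk tissue, more muscle fibres in the sample and more RNA of a gene per fibre cannot be told apart.

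**Figure D1:**
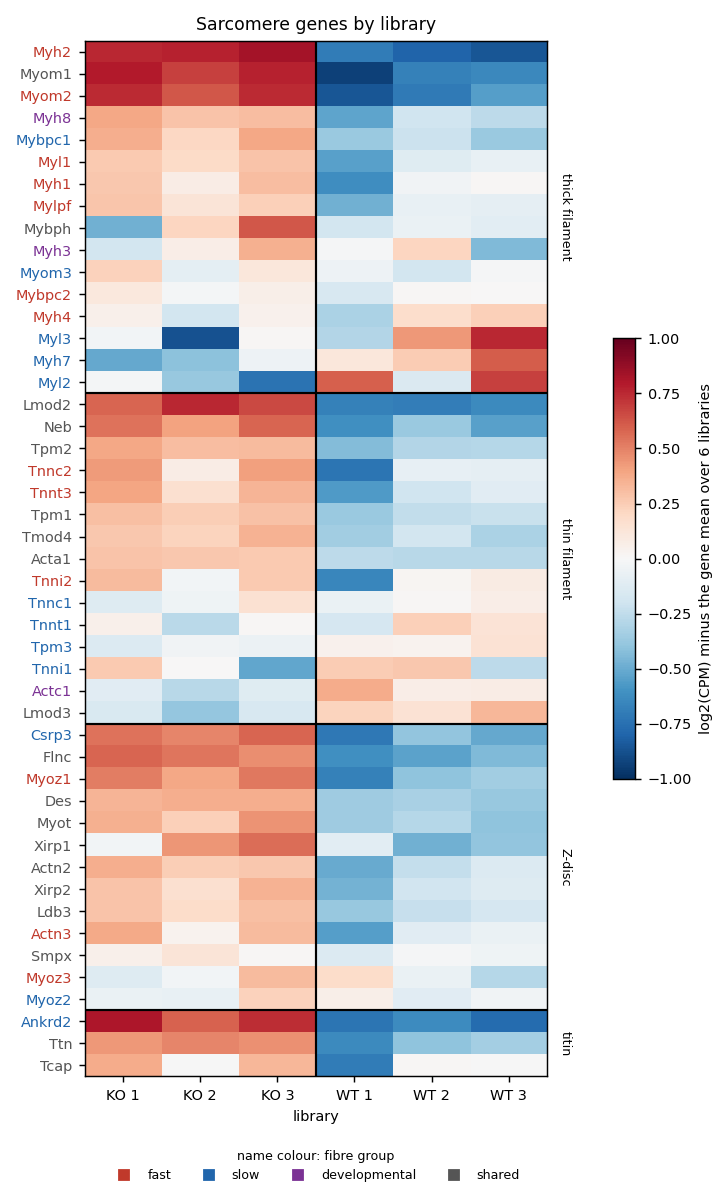
Log2(CPM) of each of the 47 tested members in each library, minus the gene's mean over the 6 libraries; rows are grouped by part of the sarcomere and gene names are coloured by fibre group. Red rows to the left mark members higher in KO, led by Myh2, Myom1 and Myom2, and the rows at the foot of the thick and thin filament blocks, such as Myh7, Actc1 and Lmod3, run the other way.

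Among the fast members 5 of 13 were called higher, Myh2, Myl1, Myom2, Tnnt3 and Myoz1, and none lower (9 higher and 0 lower at an unadjusted p under 0.05), with a median change of 0.50. Among the slow members 3 of 12 were higher, Mybpc1, Csrp3 and Ankrd2, and none lower (3 higher and 1 lower at an unadjusted p under 0.05), with a median of -0.07. DESeq2 and limma-voom each called 7 fast and 3 slow members higher and none lower. Of the 19 tested members shared between fibre types 15 were higher, with a median of 0.61. Over all tested genes 9.15% were called higher and 8.48% lower. The difference between fibre groups was not itself tested. Summed over members, fast genes had 6607, 5638 and 6520 CPM in KO 1 to 3 and 3705, 5205 and 5369 CPM in WT 1 to 3, and slow genes had 131, 124 and 134 CPM in KO and 105, 112 and 112 CPM in WT. WT 1 was thus the lowest library in both sums, and KO 2 was the lowest KO library in both.

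Of the thick filament and M-band genes, 6 of 16 were higher in KO, beside 9.15% of all tested genes. Myh2, the type IIA heavy chain, changed most of all members. It had 43.1, 43.5 and 45.5 CPM in KO 1 to 3, against 15.7, 14.7 and 14.1 CPM in WT 1 to 3. Every KO library was thus well above every WT library, and the means were 43.9 ± 0.555 CPM in KO and 15.0 ± 0.918 CPM in WT (n = 2 samples per genotype, SD). This is a 2.92-fold difference, or 1.55 on the log2 scale (SE 0.115, edgeR FDR 1e-06). Leaving out any 1 library kept its edgeR FDR between 5.3e-07 and 0.000145.

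The heavy chains that dominate the tissue, Myh4 and Myh1, did not pass edgeR's test. Myh4, the type IIB chain, had 910, 770 and 902 CPM in KO 1 to 3 and 702, 990 and 1031 CPM in WT 1 to 3. These libraries overlapped, and the change of -0.03 (95% interval -0.43 to 0.36) did not pass (edgeR FDR 0.933). Myh1, the type IIX chain, had 855, 746 and 878 CPM in KO and 461, 695 and 715 CPM in WT. The groups did not overlap, but WT 1 stood apart from the other WT libraries and the change of 0.47 (95% interval 0.04 to 0.90) did not pass (edgeR FDR 0.134). Without WT 1 it was at 0.20 (edgeR FDR 0.446), and without a filter on low counts it passed at 0.49 (edgeR FDR 0.00309). Myh7, the slow chain, was scarce, with 30, 35 and 42 counts in KO and 35, 30 and 43 counts in WT. On the CPM scale it was at 0.873 ± 0.0615 in KO and 1.34 ± 0.210 in WT (n = 2, SD), a difference of -0.63 that did not pass (95% interval -1.24 to -0.02, edgeR FDR 0.154). The chains of developing muscle differed from each other in level. Myh8, the perinatal chain, had 20.1, 18.8 and 19.1 CPM in KO and 10.7, 13.4 and 12.9 CPM in WT and rose by 0.68 (SE 0.124, edgeR FDR 0.00166). Myh3, the embryonic chain, had 27 to 40 counts in the KO libraries, against 15 to 23 in the WT libraries, and did not pass (0.15, edgeR FDR 0.816). Per kb of the longest transcript the order of levels in KO was Myh4 (139 CPM per kb), Myh1 (133), Myh2 (7.22), Myh8 (3.13), Myh7 (0.140) and Myh3 (0.139), and in WT Myh4 (142), Myh1 (95.9), Myh2 (2.47), Myh8 (1.94), Myh7 (0.215) and Myh3 (0.127). In KO the ranges of Myh4 and Myh1 over the libraries overlapped, though Myh4 was the higher of both within each library, and those of Myh7 and Myh3 overlapped too.

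The composition of the heavy chains, which does not depend on how libraries are scaled, differed between the genotypes in every library. Of the counts on Myh1, Myh2, Myh4 and Myh7, Myh4 took 50.3%, 49.3% and 49.4% in KO 1 to 3, against 59.5%, 58.2% and 58.5% in WT 1 to 3. Myh1 took 47.3%, 47.8% and 48.1% in KO and 39.1%, 40.9% and 40.6% in WT. The share of Myh2 was 2.38%, 2.79% and 2.49% in KO and 1.33%, 0.864% and 0.800% in WT, and that of Myh7 was 0.0426%, 0.0531% and 0.0581% in KO and 0.101%, 0.0769% and 0.0947% in WT. In each of these 4 shares the KO and WT libraries did not overlap. Counted as 2 samples against 2, the differences of -9.34, 7.85, 1.53 and -0.0419 percentage points each had the smallest p an exact two-sided permutation test can give (0.33, and 0.1 over the 6 libraries), so the design cannot take them past 0.05. Over the 13 shares compared the Benjamini-Hochberg adjusted values were 0.361 and 0.108. The 4 shares sum to 100% and are not independent of each other. Between 18.9% and 26.9% of the 50-base words of the longest Myh1, Myh2, Myh4, Myh7 and Myh8 transcripts also occur in another gene's transcript, mostly another heavy chain, and the rule for reads that map to several genes is not known, so the split between these genes is uncertain.

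**Figure D2:**
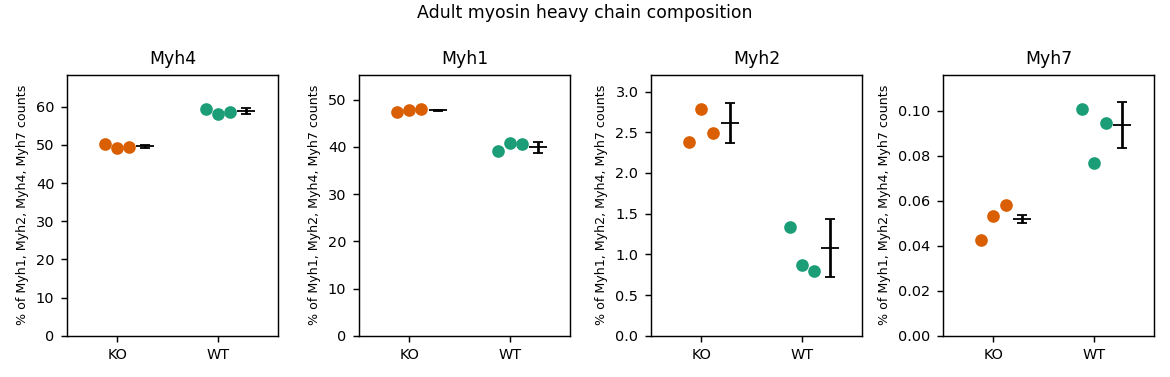
Share of Myh4, Myh1, Myh2 and Myh7 in the summed counts of these 4 genes, in percent; points are the 3 libraries of each genotype and the black bar with whiskers is the mean ± SD over the 2 samples per genotype. Myh4 and Myh7 take smaller shares in every KO library than in any WT library, and Myh1 and Myh2 larger ones.

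Myh1, Myh2 and Myh4 lie in tandem on chromosome 11. The 250 bases before the start of each are printed to set the chain that rose beside its neighbours, with those of Myom1 and Lmod2, members that also rose by more than 1 on the log2 scale. They come from RefSeq on build GRCm38.p6, which is not the build of the counts (mm39). Capitals mark matches to the MEF2 motif and to the E-box CANNTG bound by myogenic factors.
Myh2, chr11:67170777-67171026, + strand: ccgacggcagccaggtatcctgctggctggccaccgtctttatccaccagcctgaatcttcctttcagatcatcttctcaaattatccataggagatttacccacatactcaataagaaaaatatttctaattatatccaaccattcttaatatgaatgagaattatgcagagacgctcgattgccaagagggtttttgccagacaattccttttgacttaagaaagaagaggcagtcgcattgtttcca
Myh1, chr11:67199852-67200101, + strand: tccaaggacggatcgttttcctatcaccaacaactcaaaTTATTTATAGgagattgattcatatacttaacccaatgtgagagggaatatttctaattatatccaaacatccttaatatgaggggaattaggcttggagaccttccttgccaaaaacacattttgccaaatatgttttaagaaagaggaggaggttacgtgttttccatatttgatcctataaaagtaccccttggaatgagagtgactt
Myh4, chr11:67237562-67237811, + strand: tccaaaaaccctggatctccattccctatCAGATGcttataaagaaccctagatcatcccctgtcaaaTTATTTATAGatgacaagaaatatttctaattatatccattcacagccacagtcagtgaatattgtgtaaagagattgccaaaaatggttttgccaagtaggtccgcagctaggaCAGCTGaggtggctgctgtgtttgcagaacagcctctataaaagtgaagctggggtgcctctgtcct
Myom1, chr17:71019307-71019556, + strand: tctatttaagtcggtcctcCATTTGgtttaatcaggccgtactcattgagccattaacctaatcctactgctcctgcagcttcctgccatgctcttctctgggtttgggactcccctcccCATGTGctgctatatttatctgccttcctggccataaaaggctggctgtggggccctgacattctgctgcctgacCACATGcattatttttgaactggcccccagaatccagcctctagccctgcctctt
Lmod2, chr6:24597521-24597770, + strand: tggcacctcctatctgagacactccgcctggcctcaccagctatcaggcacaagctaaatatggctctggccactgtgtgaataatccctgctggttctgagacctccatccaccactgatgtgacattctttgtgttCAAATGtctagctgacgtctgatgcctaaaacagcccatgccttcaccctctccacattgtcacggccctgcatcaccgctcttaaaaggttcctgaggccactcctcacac
The same MEF2 match stood before Myh1 and Myh4, and none of the printed letters before Myh2 matched either motif on either strand. Searched in the same way, 7 of the 37 members with an entry held a MEF2 match, beside 2.92% of all 32851 promoters in the table, and 31 held an E-box, beside 66.2%. The M-CAT motif CATTCC occurred before 11 members, beside 12.6% of all promoters, and TATAAA before 9, beside 12.4%. Of the 18 members with an entry that were called higher 3 held a MEF2 match, and of the 18 that were tested and not called 4 did. M-CAT was held by 3 of those called higher and 7 of those not called, TATAAA by 4 and 5, and the E-box by 15 and 15. Where a gene had several starts in the table, the first was used. A match is a description of the letters and no evidence of binding.

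The M-band proteins that crosslink thick filaments rose with Myh2, except for Myom3. Myom1, myomesin, had 127, 118 and 126 CPM in KO 1 to 3 and 38.6, 46.2 and 47.1 CPM in WT 1 to 3, a change of 1.52 (SE 0.131, edgeR FDR 3.63e-06). Myom2, the M-protein of fast fibres, had 26.1, 23.9 and 26.1 CPM in KO and 8.58, 9.51 and 10.6 CPM in WT, a change of 1.41 (SE 0.123, edgeR FDR 4.03e-06). In both genes every KO library lay far above every WT library. Myom3, grouped as slow, had 2.51 ± 0.329 CPM in KO and 2.31 ± 0.0544 CPM in WT (n = 2, SD), and its change of 0.13 had a 95% interval of -0.30 to 0.56.

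Of the light chains and myosin-binding proteins, Myl1 and Mybpc1 passed. Myl1, the fast essential light chain, had 737, 703 and 746 CPM in KO 1 to 3 and 421, 565 and 582 CPM in WT 1 to 3 and passed (0.54, SE 0.163, edgeR FDR 0.0367), but it was at 0.34 without WT 1 (edgeR FDR 0.158), and the call was lost with at least 50 counts in 3 libraries (edgeR FDR 0.0521). Mylpf, the fast regulatory light chain, had 405, 366 and 394 CPM in KO and 240, 317 and 314 CPM in WT and narrowly did not (0.46, edgeR FDR 0.0561). It passed with 6 separate libraries (edgeR FDR 0.00369), and was at 0.29 without WT 1 (edgeR FDR 0.222). The slow light chains Myl2 and Myl3 were near the limit of what the depth can show, with 8 to 13 and 26 to 45 counts in KO and 7 to 15 and 27 to 49 counts in WT, and had changes of -0.81 and -0.60 (edgeR FDR 0.289 and 0.311). Mybpc1, the slow myosin-binding protein C, rose by 0.63 (SE 0.117, edgeR FDR 0.0021), with 53.1, 47.6 and 53.9 CPM in KO and 31.8, 35.6 and 31.9 CPM in WT. Its fast counterpart Mybpc2 had 160 ± 8.16 CPM in KO and 149 ± 12.1 CPM in WT (n = 2, SD), a change of 0.10 (edgeR FDR 0.66). Mybpc1 thus took 24.0% ± 0.590 of the counts of both genes in KO and 18.1% ± 0.627 in WT (n = 2, SD). Mybph, a related protein of low level, did not pass (0.32, edgeR FDR 0.51).

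**Figure D3:**
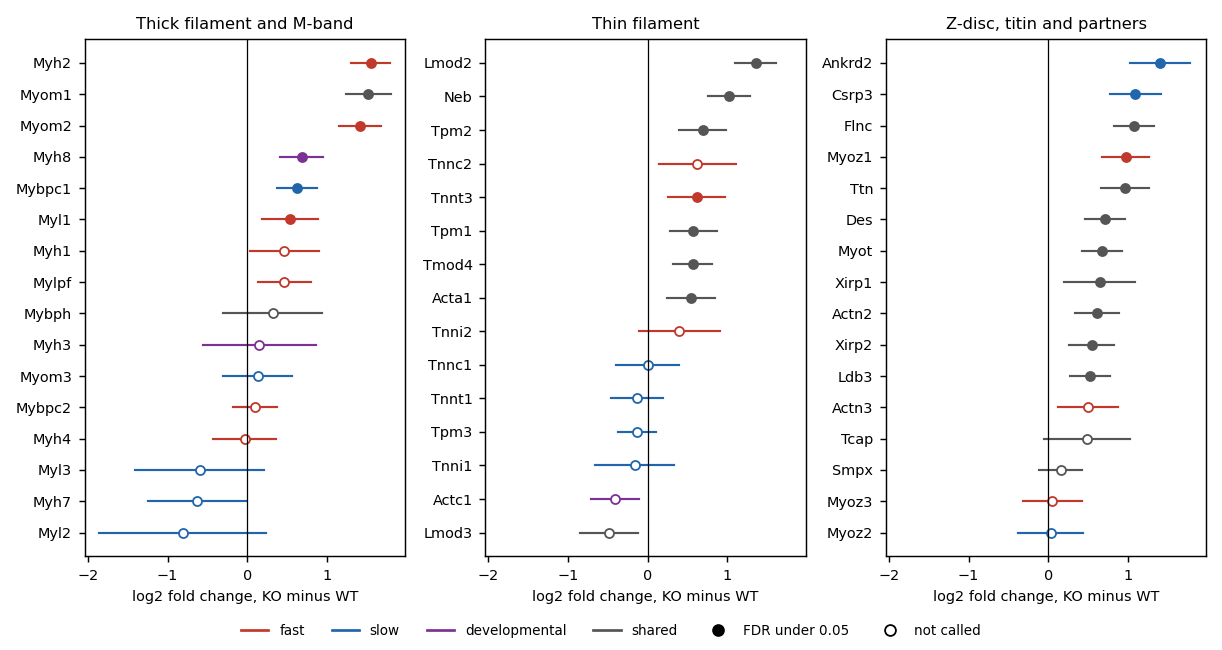
Log2 fold change of KO minus WT of each tested member with its 95% interval, in 3 panels by part of the sarcomere; colours give the fibre group and filled points passed an edgeR FDR of 0.05. Filled points lie only to the right of 0, between Ldb3 at 0.52 and Myh2 at 1.55. Of the slow genes, Mybpc1, Csrp3 and Ankrd2 are filled points and Myom3 and Myoz2 open points right of 0. The other slow genes, such as Myh7 and Tnni1, are open points at or left of 0.

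Of the thin filament genes, 7 of 15 were higher in KO, beside 9.15% of all tested genes. Acta1, the actin of adult skeletal muscle, was even across the libraries of a genotype, with 1040, 1029 and 1027 CPM in KO 1 to 3 and 712, 705 and 705 CPM in WT 1 to 3. It rose by 0.54 (SE 0.138, edgeR FDR 0.0152). Actc1, the cardiac and embryonic actin, had 7.86, 6.99 and 7.81 CPM in KO and 10.99, 8.89 and 8.93 CPM in WT. It lay lower in every KO library and did not pass (-0.41, 95% interval -0.72 to -0.11, edgeR FDR 0.0596), though it did with 6 separate libraries (edgeR FDR 0.028). Without WT 1 it was at -0.25 (edgeR FDR 0.269). Its share of both actins was 0.713% ± 0.0548 in KO and 1.38% ± 0.192 in WT (n = 2, SD).

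The troponins bind calcium and hold or release tropomyosin on actin, and each of their 3 subunits has a fast and a slow gene. Tnnt3, the fast tropomyosin-binding subunit, had 1329, 1131 and 1279 CPM in KO 1 to 3 and 683, 882 and 934 CPM in WT 1 to 3 and rose by 0.61 (SE 0.165, edgeR FDR 0.0206), or by 0.43 without WT 1 (edgeR FDR 0.084). Tnnc2, the fast calcium-binding subunit, had 840, 658 and 831 CPM in KO and 379, 593 and 589 CPM in WT, without overlap, and did not pass (0.62, edgeR FDR 0.0797). Tnni2, the fast inhibitory subunit, had 914, 720 and 880 CPM in KO and 468, 743 and 776 CPM in WT. Its groups overlapped, and the change of 0.40 did not pass (edgeR FDR 0.283). Without WT 1, Tnnc2 was at 0.35 and Tnni2 at 0.10 (edgeR FDR 0.204 and 0.752), and without a filter on low counts both passed (edgeR FDR 2.94e-05 and 0.0173). The slow genes Tnnt1, Tnnc1 and Tnni1 had means of 8.64, 2.76 and 1.59 CPM in KO and 9.48, 2.75 and 1.80 CPM in WT, with changes of -0.14, -0.00 and -0.17 (edgeR FDR 0.613, 0.998 and 0.69). As a share of each pair, Tnnt1 held 0.704% ± 0.0326 in KO and 1.18% ± 0.0325 in WT, Tnnc1 0.372% ± 0.0514 and 0.589% ± 0.153, and Tnni1 0.199% ± 0.0389 and 0.314% ± 0.140 (n = 2, SD). KO and WT libraries did not overlap for Tnnt1 and Tnnc1 and did for Tnni1 (exact permutation p = 0.33, 0.33 and 0.67 over the samples, two-sided).

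**Figure D4:**
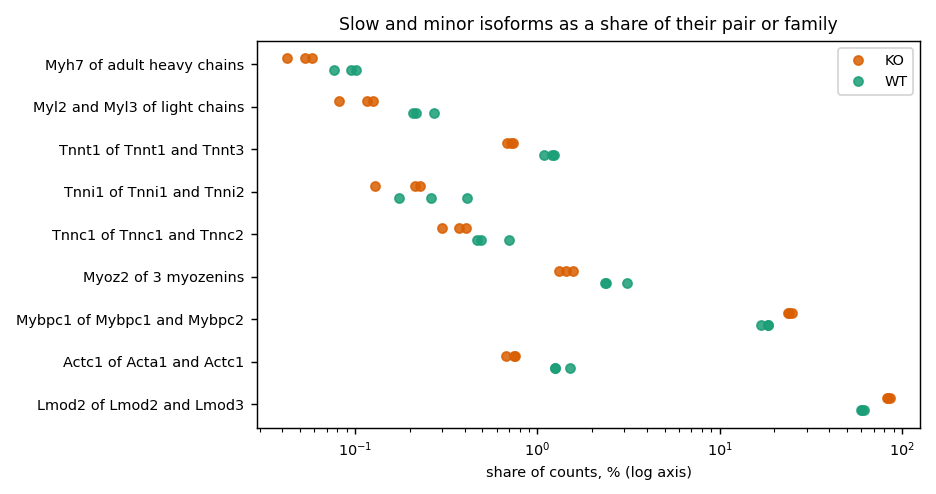
Share of slow or minor isoforms in the counts of their pair or family, in percent on a log axis, with 1 point per library. The slow shares of heavy chains, light chains, troponins and myozenins lie lower in KO libraries, with overlap for Tnni1 alone among the shares drawn, while Mybpc1 and Lmod2 take larger shares in KO.

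Shares of other slow and minor isoforms differed in direction. Myl2 and Myl3 together held 0.102% ± 0.0280 of light chain counts in KO and 0.229% ± 0.0185 in WT, and Myoz2 held 1.44% ± 0.0195 of myozenin counts in KO and 2.73% ± 0.509 in WT (n = 2, SD). Of the 7 slow shares of contractile and Z-disc families, 6 were thus lower in KO on average and that of Mybpc1 was higher. The embryonic and perinatal chains Myh3 and Myh8 together held 1.18% ± 0.0908 of the counts of 6 heavy chains in KO and 0.878% ± 0.119 in WT (n = 2, SD).

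Tropomyosin, which lies along actin, was higher for the genes Tpm1 and Tpm2 and not for Tpm3. Tpm2 had 576, 544 and 549 CPM in KO 1 to 3 and 326, 360 and 361 CPM in WT 1 to 3, a change of 0.69 (SE 0.138, edgeR FDR 0.00339). Tpm1 rose by 0.57 (SE 0.136, edgeR FDR 0.00997), with 436 ± 11.5 CPM in KO and 294 ± 19.6 CPM in WT (n = 2, SD). Tpm3, which encodes the slow tropomyosin and also isoforms of other cells, had 41.4, 44.4 and 43.8 CPM in KO and 47.0, 46.6 and 50.3 CPM in WT and did not pass (-0.14, edgeR FDR 0.464). Tpm1, Tpm2, Des and Flnc are also made by smooth muscle. Of 7 smooth muscle marker genes 4 were higher in KO in the same libraries, Myh11, Lmod1, Acta2 and Tagln, and none was lower. Over all tested genes 9.15% were called higher and 8.48% lower. All 7 markers together summed to 155 to 165 CPM in KO and 117 to 127 CPM in WT. The part of smooth muscle in the changes of Tpm1, Tpm2, Des and Flnc was not tested.

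The leiomodins, which seed and lengthen actin filaments, had changes of opposite sign. Lmod2 had 15.9, 17.9 and 16.8 CPM in KO 1 to 3 and 6.64, 6.58 and 6.83 CPM in WT 1 to 3 and rose by 1.35 (SE 0.120, edgeR FDR 4.79e-06). Lmod3, whose loss causes a human nemaline myopathy, had 3.34, 2.84 and 3.31 CPM in KO and 4.32, 4.10 and 4.66 CPM in WT. Every KO library lay below every WT library, and the change of -0.49 (95% interval -0.85 to -0.13) did not pass (edgeR FDR 0.0623), though it did with 6 separate libraries (edgeR FDR 0.024). Lmod2 took 82.6%, 86.3% and 83.5% of the counts of both genes in KO and 60.6%, 61.6% and 59.5% in WT. Neb, nebulin, the ruler that runs along the thin filament, had 89.7, 81.5 and 92.3 CPM in KO and 40.2, 47.5 and 42.1 CPM in WT, a change of 1.02 (SE 0.122, edgeR FDR 5.59e-05). Tmod4, a tropomodulin that caps the pointed end, rose by 0.56 (SE 0.112, edgeR FDR 0.00313).

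Of the Z-disc genes, 9 of 13 were higher in KO, beside 9.15% of all tested genes. In 11 of them all KO libraries lay above all WT libraries, which held for 19.2% of tested genes. Flnc, filamin C, which crosslinks actin at the Z-disc, had 43.4, 42.2 and 40.2 CPM in KO 1 to 3 and 19.0, 20.1 and 21.4 CPM in WT 1 to 3, a change of 1.08 (SE 0.114, edgeR FDR 2.13e-05). Csrp3, the muscle LIM protein, which is richest in slow and cardiac muscle, had 9.04, 8.69 and 9.28 CPM in KO and 3.78, 4.71 and 4.35 CPM in WT, a change of 1.09 (SE 0.146, edgeR FDR 0.000154). In both genes every KO library was above every WT library.

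Myozenins tie alpha-actinin to calcineurin, and of their 3 genes Myoz1 alone passed. It had 181, 166 and 183 CPM in KO 1 to 3 and 79.3, 95.7 and 99.4 CPM in WT 1 to 3, a change of 0.97 (SE 0.137, edgeR FDR 0.000237). Myoz2 and Myoz3 differed by 0.03 and 0.05, with 95% intervals of -0.38 to 0.44 and -0.32 to 0.42. Des, desmin, the intermediate filament that links Z-discs, had 127, 129 and 129 CPM in KO and 78.5, 80.1 and 77.2 CPM in WT, a change of 0.71 (SE 0.118, edgeR FDR 0.000846). Its libraries were close within each genotype and far apart between them. Myot, myotilin, rose by 0.67 (SE 0.116, edgeR FDR 0.00111), and Actn2, the alpha-actinin of all fibres, by 0.61 (SE 0.127, edgeR FDR 0.00426). Actn3, the alpha-actinin of fast fibres, had 195, 154 and 187 CPM in KO and 102, 139 and 144 CPM in WT and did not pass (0.50, edgeR FDR 0.068), though it did with 6 separate libraries (edgeR FDR 0.0214), and it was at 0.30 without WT 1 (edgeR FDR 0.222). Ldb3, a PDZ and LIM protein that binds alpha-actinin, and the actin-binding repeat proteins Xirp1 and Xirp2 passed with changes of 0.52, 0.65 and 0.54. Of these the call of Xirp1 (edgeR FDR 0.0478) was also lost without KO 3, WT 2 or WT 3 (edgeR FDR 0.183, 0.0796 and 0.0739), with at least 50 counts in 3 libraries (edgeR FDR 0.0526), with DESeq2 and with limma-voom. Smpx, a small muscle protein, lay higher in every KO library by a small amount and did not pass (0.15, edgeR FDR 0.448).

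Titin spans the sarcomere from Z-disc to M-band and acts as its spring. Ttn had 302, 314 and 308 CPM in KO 1 to 3 and 144, 170 and 177 CPM in WT 1 to 3, a change of 0.96 (SE 0.139, edgeR FDR 0.000295). Ankrd2, an ankyrin repeat protein that binds titin and is richest in slow muscle, had 5.55, 4.76 and 5.28 CPM in KO and 1.91, 2.05 and 1.86 CPM in WT, a change of 1.40 (SE 0.177, edgeR FDR 9.37e-05). Both lay without overlap above WT. Tcap, telethonin, which anchors titin in the Z-disc, had 387, 299 and 377 CPM in KO and 185, 302 and 299 CPM in WT. KO 2 lay within the range of WT, and the change of 0.49 did not pass (edgeR FDR 0.211). It was at 0.19 without WT 1 (edgeR FDR 0.498). Without a filter on low counts it passed (edgeR FDR 0.00172) with a change that was nearly the same, at 0.51.

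To see which members moved apart from the pool of sarcomere counts, the same fit was repeated with the summed member counts as library size. Abundant members weigh most in this pool, with fast genes at 6607 of 10150 CPM in KO 1 and 3705 of 5810 CPM in WT 1. On that scale the median of all tested genes was -0.52, and 5 members were higher in KO than the pool and 6 lower, where 2.64% of all tested genes were called higher and 25.8% lower. The higher ones were Myh2 (1.01, edgeR FDR 0.000615), Myom1 (1.01, edgeR FDR 8.48e-05), Myom2 (0.91, edgeR FDR 0.00526), Ankrd2 (0.89, edgeR FDR 0.022) and Lmod2 (0.84, edgeR FDR 0.0133). The lower ones were Myh7 (-1.13, edgeR FDR 0.0194), Myl3 (-1.09, edgeR FDR 0.0237), Lmod3 (-1.02, edgeR FDR 0.006), Actc1 (-0.97, edgeR FDR 0.00464), Tpm3 (-0.66, edgeR FDR 0.0202) and Myh4 (-0.53, edgeR FDR 0.0214). Acta1, Tnnt3, Myl1 and Tpm1, each called higher on the scale of all counts, stood at 0.01, 0.11, 0.04 and 0.05 on this scale and did not pass (edgeR FDR 0.965, 0.661, 0.886 and 0.846). As abundant members they are part of the reference itself, which draws their values toward 0.

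Among the 30 members with a mean of at least 10 CPM, the change had a Spearman correlation of 0.34 with the length of the longest transcript. The 9 with transcripts under 1.5 kb had a median change of 0.54 and the 11 with transcripts of at least 5 kb one of 0.96. This is a description over genes that share the same libraries. Differences within a genotype had Spearman correlations with length of the same sign. They were 0.26 for KO 2 minus KO 1 and KO 3, and 0.24 for WT 1 minus WT 2 and WT 3. Among these 30 members, WT 1 and KO 2 lay below the other libraries of their genotype most in Tcap, Tnni2 and Tnnc2, by -0.70, -0.70 and -0.64 on the log2 scale in WT 1 and by -0.35, -0.32 and -0.34 in KO 2.

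Of 32 further genes of the sarcomere and its assembly, 31 were tested, and 13 were higher in KO and none lower (14 and 0 at an unadjusted p under 0.05, and 11 and 13 higher by DESeq2 and limma-voom, none lower). The median change was 0.32, and over all tested genes 9.15% were called higher and 8.48% lower by edgeR. Trim63, the M-band ubiquitin ligase MuRF1, had 20.01 CPM in KO and 2.48 CPM in WT (2.99, SE 0.163, edgeR FDR 9.71e-08), and Mylk2, the kinase of the fast regulatory light chain, had 153 CPM in KO and 48.5 CPM in WT (1.66, SE 0.123, edgeR FDR 9.94e-07). Pdlim3, a PDZ and LIM protein of the Z-disc, rose by 1.02 (SE 0.128, edgeR FDR 8.84e-05). The capping protein genes Capza1, Capza2 and Capzb differed by -0.18, -0.02 and 0.11 and did not pass.

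Fibre type genes outside the sarcomere stand beside shares of 9.15% called higher and 8.48% lower over all tested genes. Of 8 fast fibre genes 3 were higher, among them Pygm, glycogen phosphorylase of muscle (0.89, SE 0.119, edgeR FDR 0.000147), and Atp2a1, the fast calcium pump (0.53, edgeR FDR 0.0144), and Gpd1 was lower (-0.49, edgeR FDR 0.0143). DESeq2 called 2 of these fast genes higher and none lower (5 and 1 at an unadjusted p under 0.05), and limma-voom and the 6 separate libraries 3 higher and 1 lower. Of 8 slow fibre genes none was higher and Car3, a carbonic anhydrase of slow fibres and fat cells, was lower (-0.71, SE 0.109, edgeR FDR 0.000424). The median change of these 8 slow fibre genes was nevertheless above 0, at 0.30. Their sums overlapped, with 305.2 to 365.4 CPM in KO and 257.5 to 312.3 CPM in WT. At an unadjusted p under 0.05 there were 2 slow fibre genes higher and 1 lower, DESeq2 and limma-voom each called none higher and 1 lower, and with 6 separate libraries 2 were called higher and 1 lower. Of the satellite cell and myoblast list, Myod1, a myogenic transcription factor, was lower (-2.42, edgeR FDR 0.000895). It had 6 to 10 counts in the KO libraries, against 22 to 34 in the WT libraries. The other 2 tested genes did not pass, Myog at 1.09 (edgeR FDR 0.246) and Myf5 at -0.11 (edgeR FDR 0.933). Myog lay higher in every KO library, on 9 to 20 counts, against 4 to 5 in the WT libraries. The list summed to 0.925 to 1.21 CPM in KO and 1.75 to 2.42 CPM in WT. Cardiac markers summed to 5.97 to 7.58 CPM in KO and 6.40 to 6.98 CPM in WT. None of the 3 tested passed by edgeR, DESeq2 or limma-voom, and none had an unadjusted p under 0.05.

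Markers of other tissues also differed between the same libraries, where 9.15% of all tested genes were called higher and 8.48% lower. All 8 salivary gland genes were higher in KO, with Bpifa2 at 265 CPM in KO and 21.0 CPM in WT, and the list summed to 508 to 535 CPM in KO and 39.8 to 43.4 CPM in WT. All 7 Schwann cell genes were lower, and that list summed to 365 to 380 CPM in KO and 1056 to 1103 CPM in WT. Of 8 joint cartilage, bone and lining genes 3 were higher, Prg4, Bglap and Col1a1, and Col10a1 was lower. Marker RNA of salivary gland and Schwann cells thus differed with genotype, while the joint genes went both ways. More or less of a tissue in the sample and more or less marker RNA per cell cannot be told apart here. The part of tissue makeup in the changes of the sarcomere genes was not tested.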

How the data were processed

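The deposited table holds raw read counts per gene symbol, 1 column per library, which the authors did not normalize, per the file headers and values. Build mm39 and the tools HISAT2 2.1.0 and StringTie 2.1.5 come from the submitters' processing notes. Annotation, strand setting and the treatment of shared reads are not given, so a gene and an overlapping antisense gene cannot be separated. Libraries were made from Trizol RNA with an mRNA isolation kit, per the labels' protocols.

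Groups came from sample titles. Libraries of a genotype whose median ratio of observed to counting variance (nuclear genes with at least 20 summed counts, 2 counts per read pair) was under 1.1 were summed. Labels do not state separate animals, so p-values measure only sample spread, possibly technical. Genes were kept by filterByExpr (minimum count 10), TMM-scaled and tested with edgeR 4.0.16's robust quasi-likelihood test in R 4.3.3, with Benjamini-Hochberg adjustment over all tested genes. The standard error is the change divided by the square root of F. CPM of summed libraries is their mean. Alternatives used DESeq2 1.42.0 and limma 3.58.1. Scripts were tested on simulated data. Transcript lengths are of the longest GENCODE transcript per symbol.

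The members, lists, naming rule and shares were chosen with earlier results of these data known, and the shares of Myh3 with Myh8, Mybpc1, Myoz2, Actc1 and Lmod2 were added after the data were seen. Named were all heavy chains and troponin pairs, the called members of smallest p per part and fibre group, and up to 3 called genes per other list. The other members, Capza1, Capza2, Capzb, Col2a1, Acan, Tagln, Myog and Myf5 were named outside this rule. Counting error limits low genes most, since the libraries carry no molecular identifiers.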

Additional observations from a re-analysis of the deposited data

How the results depend on the processing

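Without KO 2, 13 members were called higher, and over the 6 libraries left out in turn the counts ran from 13 to 24 members higher and 1149 to 2432 of all genes called, against 24 and 2580. With the 6 libraries as separate samples 2 members were called lower, as with the replicate number as a block, without a filter on low counts 1 (Actc1), and with at least 50 counts in 3 libraries 1 (Lmod3). Without the filter 30 members were higher, with Myh1, Mylpf, Tnni2, Tnnc2, Actn3 and Tcap added, and with 50 counts 22, with Myl1 (edgeR FDR 0.0521) and Xirp1 (edgeR FDR 0.0526) lost. None of those added is a low gene, and their changes moved little, as for Tcap from 0.487 to 0.507. The fit without the filter gave smaller FDR values to called members too, such as Myh2 (edgeR FDR 3.2e-33, against 1e-06). The DESeq2 Wald test called 1634 of 14632 genes in all, and the fit without the filter 3063 of 22032. With at least 50 counts in 3 libraries 2150 of 10078 genes were called, and with the replicate block 2939 of 13806. The replicate numbers did not pair the libraries (same-numbered deviations correlated at -0.11, -0.14 and 0.08), and with the replicate block 26 members were higher, Tnnc2 passed (0.596, edgeR FDR 0.0295) and Xirp1 did not (edgeR FDR 0.0527). Scaled to the summed members, 5 members were higher and 6 lower, and with TMM over the members 10 and 7. On these scales 4161 and 5469 of the 14632 tested genes were called higher or lower, and the medians of all tested genes were -0.524 and -0.514. On the first of these scales Myh1, Myh3, Mylpf, Mybpc2, Mybph and Myom3 turned to -0.026, -0.363, -0.043, -0.418, -0.182 and -0.401, and Tnni2, Actn3, Myoz2, Myoz3, Smpx and Tcap to -0.094, -0.003, -0.502, -0.503, -0.357 and -0.003. On the second Myh1, Myh3, Mylpf, Mybpc2, Mybph, Myom3, Tnni2, Myoz2, Myoz3 and Smpx turned to -0.020, -0.351, -0.035, -0.408, -0.174, -0.385, -0.087, -0.486, -0.484 and -0.348. None of these was called in either fit. Tnnc1, at -0.001 and between -0.078 and 0.062 over the leave-outs, turned to 0.004 with DESeq2 size factors, 0.011 without mitochondrial genes, 0.02 without a filter, 0.005 in the Wald test, and 0.062, 0.028 and 0.02 without KO 1, KO 2 or WT 3. Leaving out each library in turn, Myh4 ran from -0.26 (without WT 1) to 0.081 (without KO 2), Tnnt1 from -0.277 to 0.004, Myh3 from -0.007 to 0.293, Myoz2 from -0.061 to 0.102 and Myoz3 from -0.078 to 0.241. Without KO 3, Tnni1 was at 0.009. The cause was not tested. All 13 shares kept their direction over 6 separate libraries and over the leave-outs, with Tnni1 at -0.143 to -0.0165 percentage points when each library was left out.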
